A study of Mus musculus with 24 samples.

Results

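The mast cell genes of the nerve are 8 genes named for the granule proteases, the receptors and the histamine-forming enzyme of mast cells, namely Tpsab1, Tpsb2, Cpa3, Cma1, Mcpt4, Kit, Hdc and Fcer1a. All probe sets annotated to these symbols were taken, 11 of the 22690 on the array, and all 8 genes were measured; Tpsb2, Kit and Hdc have 2 probe sets each. The probe sets used for the genes were 1426175_a_at (Tpsab1), 1422180_a_at (Tpsb2), 1448730_at (Cpa3), 1449456_a_at (Cma1), 1425967_a_at (Mcpt4), 1452514_a_at (Kit), 1451796_s_at (Hdc) and 1421775_at (Fcer1a), in each case the brightest. The arrays hold total RNA of mouse sciatic nerve, dissected free of the perineurial sheath, with 2 biological replicates in each of 12 groups. The groups are WT, Chop null, S63del and S63del/Chop null mice at postnatal day 5 (P5), P28 and 4 months. S63del mice are the study's model of Charcot-Marie-Tooth 1B neuropathy, and Chop null mice lack CHOP, a transcription factor of the unfolded protein response encoded by Ddit3. The labels do not give the strain, the sex or the number of mice behind an array. Values are log2 expression, differences are log2 differences ± SE from limma, and a gene is called changed at an adjusted p under 0.05 over 12393 genes.

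Mast cells are resident immune cells of connective tissue and lie in peripheral nerve, in the endoneurium and around its vessels. They depend on the receptor KIT and its ligand, store histamine and proteases bound to heparin in granules, and release them when IgE on the receptor FcεRI is cross-linked or when other receptors are engaged. Mouse connective tissue mast cells hold tryptases, the chymases encoded by Cma1 and Mcpt4, and carboxypeptidase A3. GATA factors and MITF are known regulators of their genes.

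The promoter windows of Cpa3, Cma1 and Mcpt4 are printed because these 3 genes lay closest together across the arrays. Each holds the 250 bases before the RefSeq start (build GRCm38.p6), written 5′ to 3′ on the strand of the gene. They lie at chr3:20242182-20242431, chr14:55944676-55944925 and chr14:56062311-56062560, all on the minus strand. Capitals mark a GATA hexamer, that is AGATAA on either strand, with T also allowed as the first letter and G as the last.

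Cpa3: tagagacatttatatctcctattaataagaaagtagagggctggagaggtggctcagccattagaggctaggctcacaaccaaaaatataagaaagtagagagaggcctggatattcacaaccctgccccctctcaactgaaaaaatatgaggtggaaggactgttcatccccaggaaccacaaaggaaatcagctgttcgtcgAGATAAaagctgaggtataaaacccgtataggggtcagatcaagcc

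Cma1: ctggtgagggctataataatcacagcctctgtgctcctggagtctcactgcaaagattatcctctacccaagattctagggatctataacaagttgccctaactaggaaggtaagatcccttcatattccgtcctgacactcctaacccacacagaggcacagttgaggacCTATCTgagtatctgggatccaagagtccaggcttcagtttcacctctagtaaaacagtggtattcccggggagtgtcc

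Mcpt4: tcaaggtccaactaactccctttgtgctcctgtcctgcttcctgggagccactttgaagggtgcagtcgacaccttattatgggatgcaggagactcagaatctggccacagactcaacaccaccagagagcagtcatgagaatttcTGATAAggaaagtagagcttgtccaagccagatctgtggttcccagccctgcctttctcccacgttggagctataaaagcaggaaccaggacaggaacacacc

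The match lies 46 bases before the start in Cpa3, 79 in Cma1, where it reads on the other strand, and 103 in Mcpt4. Of the 8 genes 6 have a window in the table used, and 5 of these 6 hold such a hexamer, Fcer1a 92 and Hdc 221 bases before the start. Kit has 2 overlapping windows and no match in either. Over all 32851 windows of the same length 26.5% hold one. The E-box letters CATGTG or CACGTG, the form that MITF is known to bind, were found in Fcer1a only, 208 bases before the start, against 17.6% of all windows. Tpsab1 and Tpsb2 are not in the table. A match of letters describes the sequence and is not evidence of binding.

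**Figure D1:**
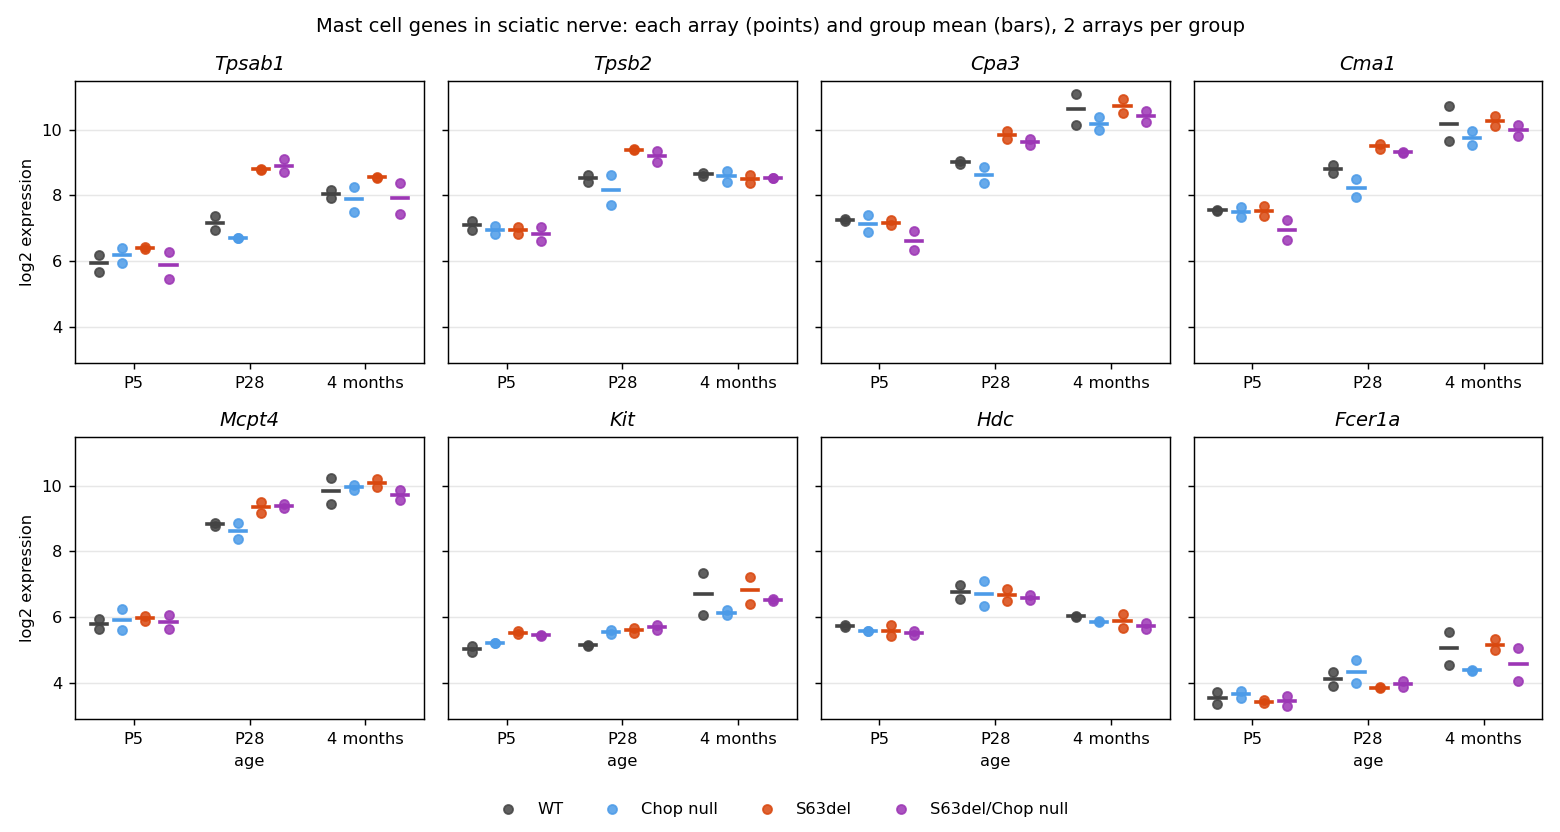
Log2 expression (vertical axis) of each mast cell gene on every array, by age (horizontal axis) and genotype (colour); points are arrays, bars the mean of the 2 arrays of a group. The 5 protease genes climb between P5 and P28. At P28 their S63del and S63del/Chop null arrays lie above all WT and Chop null arrays. How many of all genes separate in this way was not counted.

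Across ages, the transcripts of the granule proteases were the members that rose most. From P5 to P28, with the 4 genotypes weighted equally and 8 arrays at each age, 7 of 8 members rose, and from P5 to 4 months 8 of 8 did. Of all genes 46.2% were called higher and 35.4% lower at P28 than at P5, and 31% higher and 26.4% lower at 4 months than at P5, so the counts of members are to be read against a large background. The members, chosen with earlier results of these data known, had a median difference from P5 to P28 of 1.69, against 0.12 for all genes. Markers of other cell types moved over the same step: 7 of 7 adipocyte markers rose (median 3.03), as did 10 of 11 lymphocyte (0.55), 10 of 15 macrophage (0.52) and 10 of 13 fibroblast and perineurium markers (0.61). The 18S rRNA control probe sets read 7.41 to 10.46 at P5 and 5.35 to 5.85 at 4 months. The part of these readings in the age differences was not tested.

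Mcpt4, a chymase of connective tissue mast cells, had the largest difference with age of the 8. Its 8 arrays ranged from 5.60 to 6.24 (median 5.92) at P5, from 8.36 to 9.50 (median 9.02) at P28 and from 9.44 to 10.22 (median 9.91) at 4 months. No P5 array reached any later array. The difference from P5 to P28 was 3.16 ± 0.13 (limma adjusted p = 8.1e-13), and from P5 to 4 months 4.01 ± 0.13 (limma adjusted p = 2.19e-14). On 3 of the 8 P5 arrays Mcpt4 lay below 5.73, the 90th percentile at P5 of a list of genes restricted to other organs. The sizes of the differences from P5 are therefore uncertain. Of the 22 genes of that list 22 rose from P5 to P28 (median 0.47). Cpa3, the granule carboxypeptidase, ranged from 6.32 to 7.41 (median 7.16) at P5, from 8.38 to 9.96 (median 9.30) at P28 and up to 11.09 (median 10.44) at 4 months. The 3 ages did not overlap, and Cpa3 rose by 2.23 ± 0.14 and then by 1.20 ± 0.14 (limma adjusted p = 2.09e-10 and 6.39e-07). Cma1, the other chymase, went from a median of 7.45 at P5 through 9.11 at P28 to 10.03 at 4 months and rose at both steps, by 1.58 ± 0.14 and 1.09 ± 0.14 (limma adjusted p = 2.21e-08 and 2.65e-06).

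The tryptases took a different course after P28. Tpsb2 rose by 1.87 ± 0.11 from P5 to P28 (limma adjusted p = 1.84e-10), from arrays between 6.61 and 7.23 to arrays between 7.70 and 9.41. Its 4-month arrays lay between 8.37 and 8.73, and the step from P28 was -0.26 ± 0.11 (limma adjusted p = 0.0511), a fall that was called in 9 of 25 alternatives, quantile normalization and the replicate block among them. Tpsab1 rose by 1.80 ± 0.16 from P5 to P28 (limma adjusted p = 1.33e-08), and from P28 to 4 months the difference was 0.20 ± 0.16 (limma adjusted p = 0.235). Both averages combine genotypes that went different ways. Between P28 and 4 months the mean of Tpsab1 went from 7.17 to 8.05 in WT and from 6.70 to 7.88 in Chop null nerve, but from 8.79 to 8.55 in S63del and from 8.91 to 7.91 in S63del/Chop null nerve. That of Tpsb2 went from 8.52 to 8.64 and from 8.16 to 8.58 without S63del, and from 9.40 to 8.49 and from 9.20 to 8.54 with it. The test of this difference between genotypes is given with the S63del comparisons.

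From P28 to 4 months 5 members rose, Cpa3, Cma1, Mcpt4 by 0.85 ± 0.13, Kit and Fcer1a, and 1 fell, Hdc by its brighter probe set, where 39.8% of all genes were called higher and 38.4% lower. Kit, the receptor on which mast cells depend and which melanocytes also carry, lay between 4.93 and 5.56 at P5, between 5.13 and 5.76 at P28 and between 6.06 and 7.34 at 4 months. On this brighter probe set all 4-month arrays lay above the earlier ones, and Kit rose by 1.05 ± 0.14 over the step from P28 (limma adjusted p = 3.06e-06). Of 6 melanocyte markers 1 was called higher and 5 lower over that step (median -0.52). Their array means, 4.72 to 5.53, lie in the range of the genes restricted to other organs. Of those 22 genes 20 fell over the same step (median -0.42). The part of melanocytes in the Kit signal was not tested. The second Kit probe set stood at -0.11 ± 0.07 for the same step (limma adjusted p = 0.192 over all probe sets). Its means at P5, P28 and 4 months were 5.29, 5.64 and 5.54. The rise of Kit after P28 thus rests on the brighter probe set. From P5 to P28 Kit was not called in the main fit, but was with the mean of both probe sets or with every probe set on its own. Fcer1a, the IgE-binding chain of FcεRI, rose by 0.55 ± 0.16 and then by 0.72 ± 0.16 (limma adjusted p = 0.00424 and 0.000527).

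Hdc, the enzyme that makes histamine, had 2 probe sets that disagreed. The brighter one lay between 5.43 and 5.77 at P5, 6.32 and 7.09 at P28, and 5.63 and 6.10 at 4 months, so that it rose by 1.09 ± 0.11 and then fell by 0.82 (limma adjusted p = 6.45e-08 and 2.65e-06). The other had medians of 3.83, 4.21 and 4.72 at the 3 ages and rose over the last step by 0.75 ± 0.16 (limma adjusted p = 0.000469 over all probe sets), with 1 WT array at 6.34. With the mean of both, the last step was -0.03 (limma adjusted p = 0.80). The difference of the brighter one from P5 to 4 months, 0.27 ± 0.11 (limma adjusted p = 0.0382), missed the threshold in 14 of 24 alternatives. No course of Hdc between P28 and 4 months is therefore given.

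The dim members lie where genes of other organs also lie. No detection calls were used here, so 22 genes restricted to organs such as retina, testis or pituitary were read as a guide to the low end. At P5 their levels had a median of 4.37 and a 90th percentile of 5.73, at P28 4.86 and 6.67 and at 4 months 4.43 and 5.84. Fcer1a, between 3.28 and 5.56 over all arrays, lay below the 90th percentile of that list at every age, Kit did so at P5 and P28, and Hdc lay on both sides of it. At P5 this range also reached the lowest arrays of Mcpt4 (3 of 8) and of Tpsab1 (2 of 8). Of these 22 genes 22 rose from P5 to P28 (median 0.47) and 20 fell from P28 to 4 months (median -0.42). Fcer1a's first step is close to that shift, and with quantile normalization it was 0.27 (limma adjusted p = 0.103). The spread of values on an array was also narrower at P28, with an interquartile range of 2.90 to 3.52, against 3.77 to 3.83 at P5 and 3.86 to 3.90 at 4 months; its part in the age differences was not tested. The protease genes lay at or above the 80th percentile of their array at 4 months for Cpa3, Cma1 and Mcpt4.

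**Figure D2:**
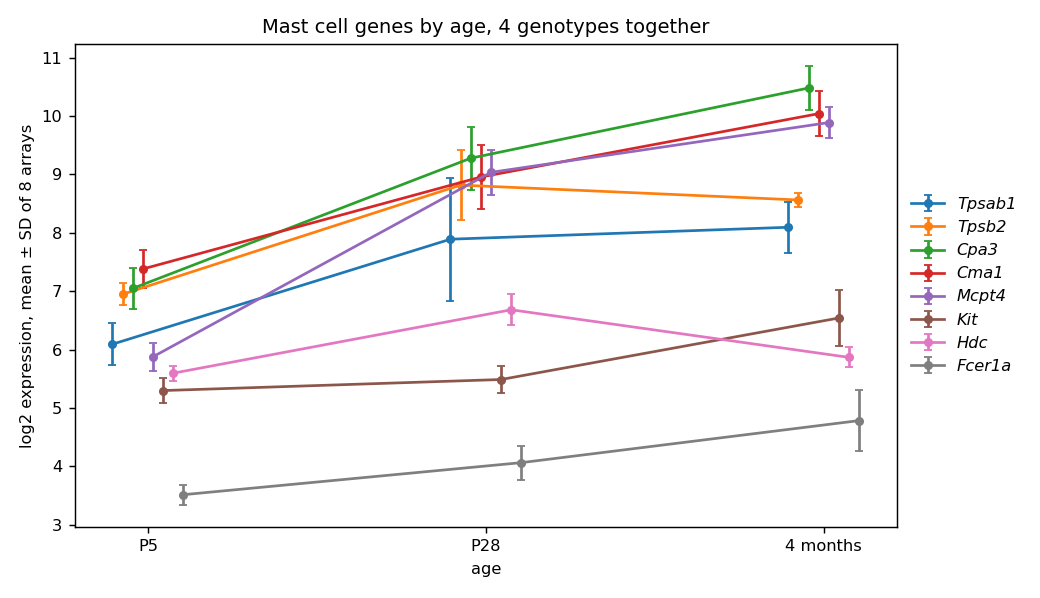
Mean log2 expression (vertical axis) of each mast cell gene at the 3 ages (horizontal axis), with the SD of the 8 arrays of an age as bars. Cpa3, Cma1 and Mcpt4 rise at both steps, the means of Tpsab1 and Tpsb2 over all genotypes change by 0.20 and -0.26 after P28, and Fcer1a rises by less than 1 at each step.

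Because these are whole-nerve arrays, more mast cells and more RNA of these genes per mast cell cannot be told apart. Other genes listed for mast cell biology moved in both directions with age. These lists were also chosen with earlier results of these data known. Of all genes 31% were called higher and 26.4% lower at 4 months than at P5. Of 12 measured genes of granules and proteoglycans 6 were called higher and 1 lower at 4 months than at P5. Srgn, the core protein that carries granule heparin and is also made by other blood cells, rose by 2.20 ± 0.06 (limma adjusted p = 5.19e-15), and Tph1, the enzyme for serotonin, by 1.45 ± 0.14 (limma adjusted p = 6.85e-08). The gene that fell was Ddc, the decarboxylase that acts after TPH1, by 1.19 on the log2 scale (limma adjusted p = 5.93e-07). Of 15 genes of the IgE receptor and its signalling 10 rose and 2 fell. Ms4a2, the β chain of FcεRI, rose by 1.55 ± 0.11 (limma adjusted p = 1.95e-09). The genes that fell were Fyn and Gab2, at -1.01 ± 0.06 and -0.29 ± 0.12 (limma adjusted p = 2.13e-10 and 0.0444). Means at P5 and 4 months were 3.82 and 5.26 for Tph1 and 3.69 and 5.23 for Ms4a2. They lie under the 90th percentiles of the genes restricted to other organs (5.73 and 5.84). Of those 22 genes 1 rose and 0 fell between these ages. Of 17 genes for KIT ligand, cytokine receptors and transcription factors 9 rose and 2 fell. Those that fell were Itga4 and Il3ra, at -0.54 ± 0.09 and -0.38 ± 0.06 (limma adjusted p = 2.68e-05 and 5.29e-05). Il33, an alarmin for mast cells, rose by 2.23 ± 0.07 and Kitl, the KIT ligand, by 1.11 ± 0.09 (limma adjusted p = 2.55e-14 and 3.42e-09). Among 10 genes for receptors and breakdown of mast cell products, 3 rose and 1 fell, with the H1 histamine receptor Hrh1 at 2.49 ± 0.08 and Hnmt, which inactivates histamine, at 2.43 ± 0.08 (limma adjusted p = 4.61e-14 and 4.55e-14).

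The comparison of both S63del genotypes with both others asks what S63del changes. At P28 the 5 protease genes were higher in both S63del genotypes (4 arrays against 4), by 0.64 to 1.91 on the log2 scale, while Kit, Hdc and Fcer1a were not called. These 5 of 8 members stand against 16.1% of all genes called higher and 11.9% called lower. The members' median difference was 0.76, against -0.02 for all genes. The members were chosen with earlier results of these data known, so these figures describe them and are not independent support. At P5 and at 4 months no member was called.

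Tpsab1, a tryptase, differed most. At P28 the WT arrays read 6.95 and 7.39 and the Chop null arrays 6.69 and 6.71, while the S63del arrays read 8.78 and 8.80 and those of S63del/Chop null 8.71 and 9.10. All 4 arrays with S63del lay above all 4 without. The share of all genes that separate in this way was not counted, and 28% of all genes were called in either direction in this comparison. The difference was 1.91 ± 0.22 (limma adjusted p = 2.62e-05), a 3.77-fold rise with a 95% interval of 1.45 to 2.38 on the log2 scale. Tpsb2, the other tryptase, read 8.41 and 8.62 with WT nerve, 7.70 and 8.63 with Chop null, 9.38 and 9.41 with S63del and 9.03 and 9.36 when both alleles were present. Its groups did not overlap either, and it rose by 0.96 ± 0.16 (limma adjusted p = 0.000761). The second Tpsb2 probe set lay between 3.66 and 4.19 on all 24 arrays and had a P28 difference of 0.05 ± 0.10 (limma adjusted p = 0.728 over all probe sets). Tpsab1 and Tpsb2 are close copies of one gene family on chromosome 17, so their probe sets may share signal, and RefSeq lists Tpsab1 as a transcribed pseudogene in its assembly.

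At P28 the WT arrays of Cpa3 read 9.05 and 8.97, the Chop null arrays 8.38 and 8.87, the S63del arrays 9.96 and 9.73 and the S63del/Chop null arrays 9.72 and 9.54. Cma1 read 8.92 and 8.67, 7.95 and 8.51, 9.55 and 9.42, and 9.30 and 9.32 in the same order. Mcpt4 read 8.87 and 8.77, 8.36 and 8.87, 9.50 and 9.17, and 9.43 and 9.32. In all 3 genes the arrays with S63del lay above those without, by the narrowest gap in Mcpt4, and Chop null replicate 1 was the lowest array. How often other genes separate in this way was not counted. Cpa3 rose by 0.92 ± 0.20, Cma1 by 0.89 ± 0.20 and Mcpt4 by 0.64 ± 0.18 (limma adjusted p = 0.00362, 0.00512 and 0.0161). With array weights these 3 calls were lost (limma adjusted p = 0.0998, 0.0889 and 0.204), and that of Mcpt4 in 5 of 18 alternatives: array weights, the arrays of P28 alone, quantile normalization, the muscle covariate and the fit without S63del replicate 1 (limma adjusted p = 0.204, 0.0593, 0.0526, 0.0587 and 0.0701).

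The differences of the other 3 members at P28 were 0.29 ± 0.20 for Kit, -0.11 ± 0.15 for Hdc and -0.32 ± 0.22 for Fcer1a (limma adjusted p = 0.262, 0.579 and 0.282). Their 95% intervals were -0.12 to 0.71, -0.43 to 0.20 and -0.79 to 0.15. The arrays with and without S63del overlapped in each of these genes.

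**Figure D3:**
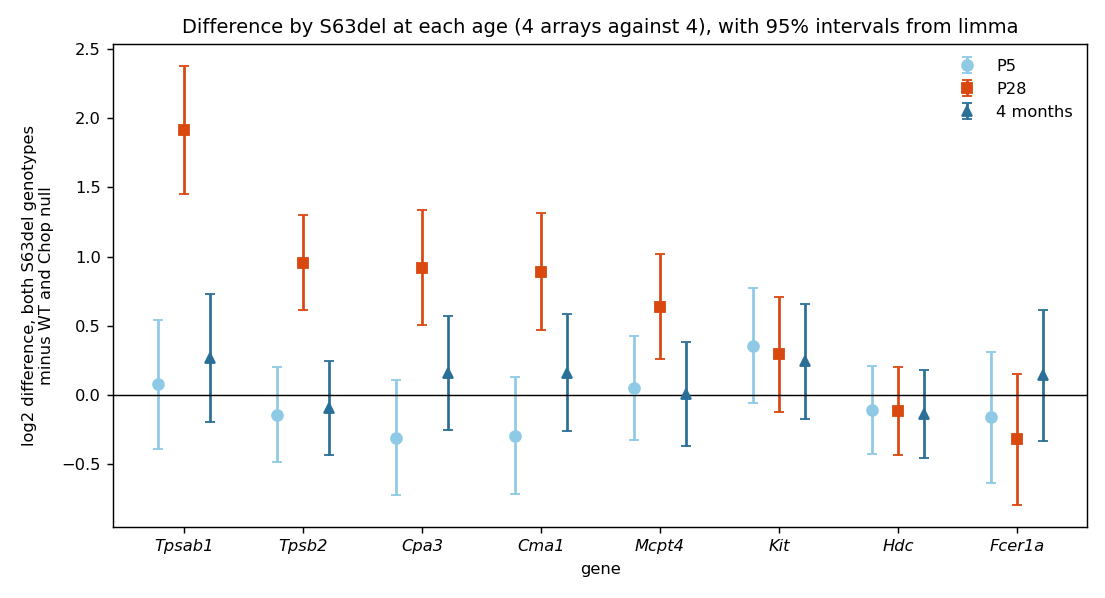
Log2 difference between both S63del genotypes and WT with Chop null (vertical axis, 4 arrays against 4) for each mast cell gene (horizontal axis) at P5, P28 and 4 months, with 95% intervals from limma. At P28 the intervals of the 5 protease genes lie above 0, from 0.64 for Mcpt4 to 1.91 for Tpsab1, and at P5 and 4 months every interval spans 0.

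At P5 the difference of Tpsab1 was 0.08 ± 0.22 and at 4 months 0.27 ± 0.22, and of Cpa3 -0.31 ± 0.20 and 0.16 ± 0.20. No member was called at either age by limma over all 24 arrays, and none had an unadjusted p under 0.05. Of 12393 genes 1980 had one at P5 and 408 at 4 months. Of all genes 5.97% were called in either direction at P5 and 0% at 4 months. Kit at P5 lay between 5.43 and 5.56 with S63del and between 4.93 and 5.22 without. A fit of the P5 arrays alone called Kit. These levels are under 5.73, the P5 90th percentile of the genes restricted to other organs, and the arrays of the second Kit probe set overlapped. The change of the S63del difference between ages was tested itself. From P5 to P28 it grew in Tpsab1 by 1.84 ± 0.31, in Cpa3 by 1.23 ± 0.28, in Cma1 by 1.18 ± 0.28 and in Tpsb2 by 1.10 ± 0.23 (limma adjusted p = 0.00277, 0.0196, 0.0283 and 0.0129), 4 of 8 members against 3.1% of all genes in either direction. From P28 to 4 months it shrank in Tpsab1 (-1.65 ± 0.31) and in Tpsb2 (-1.05 ± 0.23; limma adjusted p = 0.00918 and 0.021), 2 of 8 members against 3.15%. Averaged over the 3 ages only Tpsab1 was called, at 0.75 ± 0.13 (limma adjusted p = 0.00068), where 9.54% of all genes were called higher. Without WT 4-month replicate 1, the array with the highest Cpa3, Cma1, Mcpt4, Kit and Fcer1a at that age, 5 members were called in that average.

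Within the proteases the P28 difference was uneven. The log2 signal of Tpsab1 minus that of Cpa3 on the same array lay between -2.17 and -1.58 on the arrays without S63del and between -1.19 and -0.44 on those with it, with no overlap. At P5, where no member was called, the same measure also separated them, between -1.60 and -0.93 without S63del and between -0.86 and -0.64 with it. At 4 months the arrays overlapped. The measure for Tpsb2 at P28 lay between -0.68 and -0.24 and between -0.69 and -0.18. These ratios were looked at after the values were seen and were not tested.

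Single genotypes were compared with 2 arrays against 2. S63del against WT at P28 called Tpsab1 (1.62 ± 0.31, limma adjusted p = 0.007) and Tpsb2 (0.88 ± 0.23, limma adjusted p = 0.0372), 2 of 8 members against 3.01% of all genes higher. Without WT replicate 1, S63del replicate 1 or S63del replicate 2 neither was called, and without WT replicate 2 only Tpsab1 was. S63del/Chop null against WT called Tpsab1 (1.74 ± 0.31, limma adjusted p = 0.00403), 1 of 8 against 2.7%, a call lost without WT replicate 1 or S63del/Chop null replicate 2. S63del/Chop null against Chop null called the 5 proteases, with Tpsab1 at 2.21 ± 0.31 and Mcpt4 at 0.76 ± 0.25 (limma adjusted p = 0.00047 and 0.0463), 5 of 8 against 9.77%. Without Chop null replicate 1 only 2 of the 5, Tpsab1 and Tpsb2, were called, together with Hdc, which had a mean of 6.58 in S63del/Chop null nerve and read 7.09 on the remaining Chop null array. Without S63del/Chop null replicate 1 the same 2 proteases were called, and without its replicate 2 only Tpsab1. These comparisons share arrays and are not independent of one another.

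Loss of CHOP on the S63del background, the comparison the study turns on, moved no member past the threshold. By limma 0 of 8 members were called between S63del/Chop null and S63del at P5, P28 or 4 months, against 0.0161%, 0.00807% and 0.00807% of all genes. At an unadjusted p under 0.05 there were 0 of 8 members, and 110, 466 and 274 of 12393 genes. For Tpsab1 the difference at P28 was 0.12 with a 95% interval of -0.54 to 0.77, and for Cpa3 -0.22 with an interval of -0.80 to 0.37. Intervals of this width do not show that the 2 genotypes are alike. Both Chop null genotypes against both others also called 0 members at each age and over all ages. At 4 months 2 members had an unadjusted p under 0.05, as had 741 of 12393 genes. The members' median difference there was -0.37, against -0.04 for all genes. Over all ages 2 members had an unadjusted p under 0.05, as had 501 genes. The interaction of S63del and Chop at P28 called 0 members and 0% of all genes. It gave an unadjusted p under 0.05 for 0 members and for 972 of 12393 genes.

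At P28 the other lists of mast cell biology held called genes in both directions, where 16.1% of all genes were called higher and 11.9% lower. Of 12 granule and proteoglycan genes 0 were called higher and 2 lower, Mcpt2, a chymase of mucosal mast cells (-0.56 ± 0.19), and Srgn (-0.25 ± 0.09; limma adjusted p = 0.0348 and 0.0405). Of 15 genes of the IgE receptor and its signalling 1 rose, the kinase gene Fyn (0.30 ± 0.09, limma adjusted p = 0.0225), and Ms4a2 was at 0.00 ± 0.16. Of 17 genes for KIT ligand, cytokine receptors and factors 2 rose, Mitf (0.39 ± 0.10) and Csf2rb2, a β chain for the IL-3 receptor (0.43 ± 0.15; limma adjusted p = 0.00863 and 0.0473). Of 10 receptor and breakdown genes 3 fell, Hrh3, Ptgdr and Hrh2, by 0.48, 0.49 and 0.46 (limma adjusted p = 0.00777, 0.0107 and 0.0122). Their means with S63del, 6.26 to 6.49, and those of Mcpt2, 4.77 and 5.33, lie under the 90th percentile of the organ-restricted genes at P28 (6.67). Of those 22 genes 7 fell in the same comparison (median -0.26) and 0 rose, and the part of this shift at the low end in these calls was not tested. Of 6 lipid mediator enzymes Pla2g4a rose by 0.38 ± 0.14 and Ptgds fell by 0.66 (limma adjusted p = 0.0471 and 0.0281).

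Markers of other cell types also differed between these P28 arrays, against the same 16.1% of all genes called higher and 11.9% lower. Of 15 macrophage markers 6 rose, led by Ms4a7 (1.03 ± 0.14) and Ctss (1.00 ± 0.16; limma adjusted p = 0.000113 and 0.000607), and the mean of the list lay between 9.14 and 9.36 with S63del and between 8.84 and 9.04 without. Of 11 lymphocyte markers 4 fell, of 12 granulocyte markers 3 and of 5 erythroid markers 2. The array means of the lymphocyte and granulocyte lists lay between 4.71 and 5.90, in the range of the organ-restricted genes, of which 7 of 22 fell as well. Of 10 skeletal muscle markers 2 fell, and their mean lay between 7.87 and 11.2 with S63del and between 9.70 and 11.8 without. With that mean as a covariate Tpsab1, Tpsb2, Cpa3 and Cma1 were still called and Mcpt4 was not. The 18S rRNA control probe sets read 5.21 to 5.82 on the P28 arrays with S63del and 8.61 to 9.78 on those without, and the interquartile range was 3.383 to 3.517 against 2.902 to 3.381. These readings separate the same arrays as the genotype, and their part in the P28 results was not tested. On the 24 arrays medians lay between 6.84 and 7.03, and Ddit3 was lower on all 12 arrays labelled Chop null (6.60 to 7.37) than on the other 12 (7.61 to 9.59).

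**Figure D4:**
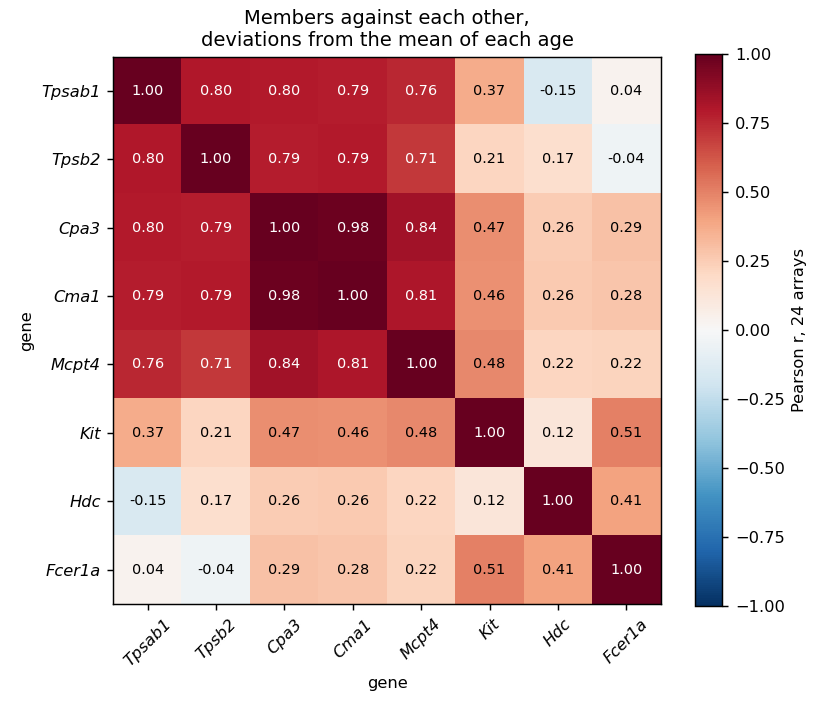
Pearson r between mast cell genes over 24 arrays, after the mean of each age was subtracted, with the genes on both axes and r as colour and number. The 5 protease genes form a block of r between 0.71 and 0.98, and Kit, Hdc and Fcer1a lie outside it. Differences between genotypes were left in.

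After the mean of each age was taken off, with differences between genotypes left in, the proteases moved together over all arrays. Some pairs did so less within P5 and 4 months. Cpa3 and Cma1 had r = 0.98 over 24 arrays, and within P5, P28 and 4 months, with 8 arrays each, r was 0.97, 0.98 and 0.99. The 10 pairs of protease genes had r between 0.71 (Tpsb2 with Mcpt4) and 0.98. Within P28 they ran from 0.88 to 0.98. Within P5 they ran from 0.38 (Tpsb2 with Mcpt4) to 0.97, and within 4 months from 0.15 (Tpsab1 with Tpsb2) to 0.99. Against the mean profile of the 5 proteases r was 0.43 for Kit, 0.16 for Hdc and 0.17 for Fcer1a. Within 4 months, where S63del was not called, Kit had r = 0.94 and Fcer1a r = 0.90 with Cpa3, and within P28 0.46 and -0.47. All these points share arrays, genotypes and the normalization, and WT 4-month replicate 1 alone held 11.09 for Cpa3, 7.34 for Kit and 5.56 for Fcer1a.

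Outside the members, the 10 genes most like the protease profile, among 6192 genes brighter than the median, were Nfatc2ip, Ms4a7, Slc35a1, Tor1b, Mrps30, Csrp2, Osbpl9, Aldh1a2, P2rx4 and Map3k3. Their r over 24 arrays, after subtraction of the age means, ran from 0.88 for Nfatc2ip to 0.81 for Map3k3. Each of the 10 was itself called higher with S63del at P28 (limma adjusted p = 5.12e-08 to 0.0139), a difference that the profile keeps. Of the 10, Ms4a7 is also a macrophage marker. For Csrp2 and Aldh1a2 r was 0.93 and 0.90 at P28 but -0.07 and -0.21 at P5, while Nfatc2ip had 0.87 at P5 and 0.95 at P28. With Tpsb2, Cpa3 and Cma1 alone as the profile, 8 of the 10 were the same, but these genes are also part of the first profile.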

How the data were processed

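Per the labels, total RNA of sciatic nerve was labelled with biotin and hybridised to Affymetrix arrays, 24 in all, 2 for each of 12 groups. The table deposited by the authors holds 22690 log2 values an array, 1 for each probe set. That they are log2 was judged from their range, and the steps of normalization are not given in these sources. They were used as deposited. Of the probe sets, 20380 list 1 gene symbol; of several for a gene the one with the highest mean was used, which gave 12393 genes. The members and all gene lists were chosen with earlier results of these data known.

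A mean for each group was estimated from the 24 arrays together in limma 3.58.1 (lmFit, eBayes; R 4.3.3; 12 residual degrees of freedom), with two-sided tests. P-values were adjusted by Benjamini-Hochberg over every gene tested, with 0.05 as the threshold. Every member was named, up to 4 called genes per other list and comparison, and the 10 genes most like the proteases. Alternatives changed the values (quantile normalization), the probe sets (their mean, or each on its own), the genes (none under the 40th percentile), the arrays (1 age alone, or arrays left out) and the model (array weights, robust eBayes with a trend, a replicate block, a muscle covariate).

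On simulated data with 200 of 12393 genes changed, the fit for both S63del genotypes against both others at P28 recovered 97.3% of genes changed by 1 and 99.7% of those changed by 2 on the log2 scale, with 3.74% false calls. For S63del against WT at P28 it recovered 84% and 99.7%, with 4.01% false calls. The simulated noise was independent between genes and, for each gene, equal in all groups. In the data the spread between replicates ran from 0.12 (Chop null at P5) to 0.39 (Chop null at P28). There 28% of all genes were called in the first of these comparisons. The rates therefore hold for the simulated setting and are not rates for these data. Same-numbered replicates did not deviate together (correlations between -0.48 and 0.35 within ages), so the numbers were not taken as pairs. Promoter windows are from RefSeq, GRCm38.p6.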

Additional observations from a re-analysis of the deposited data

Results flagged for a closer look

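The difference between the S63del genotypes and the others changed with age in 4 members by a direct test in limma, with 4 arrays against 4 at each age. From P5 to P28 it grew by 1.84 ± 0.31 in Tpsab1, 1.10 ± 0.23 in Tpsb2, 1.23 ± 0.28 in Cpa3 and 1.18 ± 0.28 in Cma1 (limma adjusted p = 0.00277, 0.0129, 0.0196 and 0.0283). Of all genes 3.1% were called for this step in either direction. From P28 to 4 months the S63del difference changed by -1.65 ± 0.31 in Tpsab1 and -1.05 ± 0.23 in Tpsb2 (limma adjusted p = 0.00918 and 0.021), where 3.15% of all genes were called. Between P5 and 4 months no member was called in this test, against 1.5% of all genes. An unadjusted p under 0.05 was found for 0 members and for 1092 of 12393 genes. No test for a single outlying array was run, since each group holds 2 arrays.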

How the results depend on the processing

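Of the 41 values of called members, 902 alternatives gave 812 calls that stayed on their side of the threshold, 90 that lost it and 0 that changed direction. Tpsab1 and Tpsb2 in both S63del genotypes at P28 kept their calls in all 18 alternatives, and Mcpt4 in 13. Where an array was left out of a group of 2, the lone array was assumed to vary like the other groups. For S63del against WT at P28 the 2 calls became 1 with the arrays of the age alone, with the mean of probe sets, with the muscle covariate or with quantile normalization (Tpsab1 each time), 4 without the 2 arrays of large spread (WT 4-month replicate 1 and the second Chop null array at P28, named in an earlier account of these data), and 0 to 1 with 1 array left out. For S63del/Chop null against Chop null at P28 the 5 calls became 0 with array weights, 1 with the age alone, 3 with quantile normalization and 1 to 4 with 1 array left out, 1 of them Hdc where Chop null replicate 1 was left out. For S63del/Chop null against WT at P28 the 1 call became 2 without the arrays of large spread, 2 with the replicate block and 0 to 1 with 1 array left out. For both S63del genotypes against both others, array weights left 2 of 5 calls at P28, the age alone added 1 at P5 (Kit, also in S63del against WT at P5, 1), and over all ages the 1 call became 6 without the arrays of large spread, 2 with quantile normalization, 3 with the replicate block (Kit, Tpsab1 and Tpsb2) and 1 to 5 with 1 array left out. For the growth of the S63del difference from P5 to P28 the 4 calls became 2 with array weights and 2 to 4 with 1 array left out. For its change from P28 to 4 months the 2 calls became 0 with array weights or the muscle covariate, 1 with the mean of probe sets or quantile normalization and 1 to 4 with 1 array left out. From P5 to 4 months the 8 calls became 5 without genes under the 40th percentile, which removes Kit, Hdc and Fcer1a from the genes tested. In Chop null against WT at 4 months the count of 0 became 0 to 1 with 1 array left out (Kit, without WT replicate 2). The replicate block moved no other count by over 1.5 times. Quantile normalization took the median of all genes from P5 to P28 from 0.12 to 0.02. The cause of these changes was not tested. The number of arrays limits the precision. Kit, Hdc and Fcer1a, and at P5 the lowest arrays of Mcpt4 and Tpsab1, lie within the range of genes of other organs.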
